A study of Mus musculus with 6 samples.

Results

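10 genes of insulin and insulin-like growth factor (IGF) signalling were followed in isolated mouse hepatocytes with and without the gene for BIM, a pro-apoptotic protein of the BCL-2 family. They are the ligand Igf1, the receptor Insr, the adaptors Irs1 and Irs2, the kinases Akt1 and Akt2, the transcription factor Foxo1 and the binding proteins Igfbp1, Igfbp2 and Igfbp4. They were chosen by gene symbol, though with earlier results of these data known, and make up 10 of the 48353 genes in the deposited files. The 6 libraries of polyadenylated RNA came from C57BL/6 mice. In the 3 knock-out samples Bim (symbol Bcl2l11), flanked by lox sites, had been deleted by Alb-Cre, in which the albumin promoter drives the Cre recombinase in hepatocytes, and the other 3 samples were wild-type. The labels do not say whether the wild-type mice carried the lox sites or Alb-Cre. All hepatocytes were isolated by collagenase perfusion of the liver. Mice were fed chow or a diet rich in fat, per the protocol, and neither the diet nor the age of each mouse is given. The series addresses how JNK acting through BIM bears on steatosis and insulin resistance in obesity. Since the labels do not tie each sample to an animal of its own, p-values reflect only how these samples scatter, which may be technical variation.

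Some features of the libraries touch the results. The files held 25335211 to 31130519 estimated reads per library. Bcl2l11 itself was listed at 0 in the 3 knock-out libraries and in wild-type replicate 1, and had 680 and 478 reads in wild-type replicates 2 and 3, so it does not check the label of wild-type replicate 1. A value of exactly 0 can be an estimate that was not made. Well-read loci were taken as those above 0 in at least 3 libraries, with a median over 100 reads in the libraries above 0. Of these, loci with 2 or more transcripts had 18.0% of their library values at 0 (5906 of 32778). Those with 1 transcript had 0.0156% (2 of 12822). Members listed at 0 in some library are therefore given by library, with no mean or fold, except that Foxo1 is also given with its 0 left out. Wild-type replicate 1 stood apart in markers of other cells. The 12 macrophage markers summed to 4211 RPKM (reads scaled to transcript length and to library depth) there and to 67.3 to 141 RPKM in the other 5 libraries, and all 12 were highest there. Adgre1, Clec4f, Vsig4 and C1qc, which define macrophages and Kupffer cells, were at 0 in the other 5. Of 8 endothelial markers, Cdh5 (25.7 RPKM), Eng (12.2 RPKM) and Stab2 (5.77 RPKM) were read in wild-type replicate 1, the other 5 were at 0 in every library, and the list summed to at most 1.86 RPKM elsewhere. Of 7 lymphocyte markers, Ptprc, which marks all leukocytes, stood at 106 RPKM there and at 0 elsewhere, and the others were at most at 0.143 RPKM in every library. The 10 hepatocyte markers summed to 22082 to 35751 RPKM in knock-out and to 18457 to 41319 RPKM in wild-type libraries, with 19165 RPKM in wild-type replicate 1, of which Alb gave 16508. Apoa1 (650 RPKM), Ttr (242 RPKM), Fgb (52.3 RPKM) and Cps1 (3.09 RPKM) were lowest of the 6 libraries in wild-type replicate 1, and Hnf4a (20.9 RPKM) was lowest of the 5 in which it was read. The rest of the list did not follow: Alb, Serpina1a, Serpina1c and Cyp3a11 were lower in wild-type replicate 3, and Tat was at 0 in every library. Knock-out replicate 1 and wild-type replicate 2 had the 2 highest values for 9 of 12 interferon response genes (not for Mx1, Oas2 and Irf7), and the list summed to 3853 and 3446 RPKM there against 409 to 487 RPKM in the other 4. Xist had 25083 to 38904 reads in every library and 4 Y-linked genes were at 0 in every library, whereas the protocol speaks of male mice.

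In the liver, insulin binds its receptor, a tyrosine kinase encoded by Insr, which phosphorylates the adaptors IRS1 and IRS2. These recruit PI3-kinase, and the lipid it makes brings AKT to the membrane, where it is activated. AKT phosphorylates FOXO1 and keeps it out of the nucleus, so that genes FOXO1 turns on, among them Igfbp1, Irs2 and the gluconeogenic genes G6pc and Pck1, fall after a meal. Hepatocytes also make most of the circulating IGF1, under the control of growth hormone, and several of the binding proteins that carry it in blood.

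Igfbp1, Irs2 and Irs1 hold the 7 letters at the core of the insulin response element, through which FOXO factors act. The letters lie close to the RefSeq start sites, and the sequences are shown for that reason. The search was for CAAAACA or, on the other strand, TGTTTTG, in RefSeq promoters of 300 bases (250 before the start and 50 after it, build GRCm38.p6). The RefSeq table held 14 promoters for 9 of the 10 members. The letters were found in 3 of these 14 promoters, those of 3 members, and in 2064 of all 32851 promoters (6.28%). The match lay 108 bases before the RefSeq start in Igfbp1 and 37 bases before it on the other strand in Irs2. In Irs1 the matches lay 111 and 32 bases before it on the other strand. The RefSeq start of Irs2 differs from the deposited annotation, in which this minus-strand gene spans to chr8:11008458. Counted from there, the Irs2 match lies farther upstream, beyond the 250 bases searched. Each stretch below runs from 200 to 11 bases before the start, on the gene's own strand, with the matched letters in capitals. They lie at chr11:7197587-7197776 (plus strand), chr8:11008940-11009129 (minus strand) and chr1:82291450-82291639 (minus strand).
Igfbp1: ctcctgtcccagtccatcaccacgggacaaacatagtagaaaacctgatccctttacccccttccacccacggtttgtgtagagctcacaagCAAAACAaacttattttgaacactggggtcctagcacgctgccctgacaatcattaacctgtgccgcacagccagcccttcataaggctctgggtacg
Irs2: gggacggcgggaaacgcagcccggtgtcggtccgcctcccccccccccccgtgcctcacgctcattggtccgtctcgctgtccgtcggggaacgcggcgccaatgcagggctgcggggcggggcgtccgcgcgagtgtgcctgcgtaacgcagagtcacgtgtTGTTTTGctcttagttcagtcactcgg
Irs1: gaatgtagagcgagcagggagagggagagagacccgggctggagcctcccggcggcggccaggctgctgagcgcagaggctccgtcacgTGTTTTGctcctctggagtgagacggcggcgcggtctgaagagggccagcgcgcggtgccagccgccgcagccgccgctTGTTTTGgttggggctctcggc
The match describes the letters only. In wild-type replicate 1, the library apart in markers of other cells, Igfbp1 and Irs1 were lowest and Irs2 was highest. The highest library was knock-out replicate 1 for Igfbp1 and knock-out replicate 2 for Irs1, which had only 26 to 66 reads.

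None of the members passed the test of knock-out against wild-type. limma was run on log2(RPKM + 1) over all 11021 genes whose mean was 1 RPKM or more, with Benjamini-Hochberg adjustment over all of them and a threshold of 0.05. Of the 10 members 9 were tested, since Irs1 lay below the filter, and 0 were called (0 at an unadjusted p below 0.05). Over all tested genes 87 were called (0.789%), 41 higher and 46 lower in knock-out, and each of the 87 was at 0 throughout one group. Among the 5538 tested genes above 0 in all 6 libraries, 0 were called (0%), with 130 at an unadjusted p below 0.05, and 0 of the 5 members among them. The median difference of these 5 members, knock-out minus wild-type, was 0.18 on the log2(RPKM + 1) scale, beside 0.0013 for the 5538 genes, and without wild-type replicate 1 it was 0.10 beside 0.02. Under other settings the count of members called was 0 or 1, and the called member was Akt1 or Akt2, as described with these genes.

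**Figure D1:**
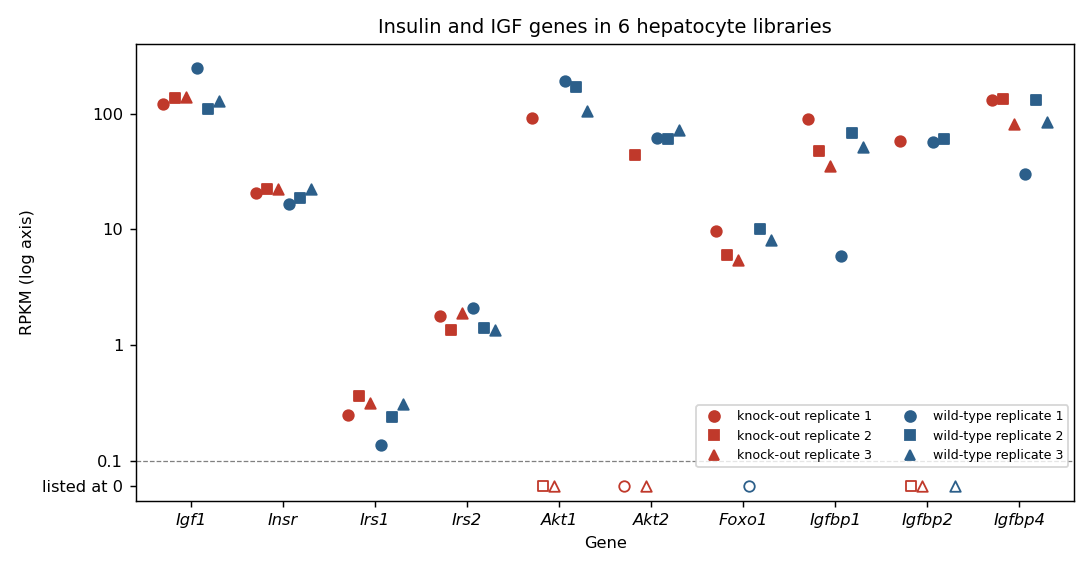
RPKM (log axis) of the 10 genes in each of the 6 libraries, knock-out in red and wild-type in blue, with one symbol per replicate number; open symbols under the dashed line are values listed at 0. The groups overlap for every gene above 0 in all libraries, Igfbp1 and Igfbp4 are lowest in wild-type replicate 1, and Akt1, Akt2, Foxo1 and Igfbp2 are listed at 0 in 1 to 3 libraries.

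The members covered a wide range of levels. By mean RPKM over the 6 libraries, a level per transcript length, the order of the 6 members above 0 in every library was Igf1 (147), Igfbp4 (98.9), Igfbp1 (49.7), Insr (20.5), Irs2 (1.64) and Irs1 (0.269). Compared within each library, Igf1 and Igfbp4 were not separated, since Igf1 was higher in 4 of 6, with ratios from 0.835 to 8.28. Igfbp4 exceeded Igfbp1 in 6 of 6 libraries, by 1.45 to 5.09 times. Igfbp1 exceeded Insr in 5 of 6, and in wild-type replicate 1 the order was the reverse (ratio 0.353). Insr exceeded Irs2 in 6 of 6 by 7.99 to 16.7 times, and Irs2 exceeded Irs1 in 6 of 6 by 3.68 to 15.4 times.

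Igf1, the IGF ligand that the liver secretes into blood, was read abundantly in every library (ENSMUSG00000020053, chr10:87858265-87937042, plus strand). Its estimated reads were 17274, 19028 and 18734 in knock-out replicates 1, 2 and 3 against 12034, 16658 and 18320 in wild-type replicates 1, 2 and 3. The corresponding RPKM levels were 121, 137 and 138 in knock-out against 248, 110 and 128 in wild-type. Wild-type replicate 1 thus had the fewest reads and the highest RPKM, while the other 5 libraries lay within 1.25 times of each other in RPKM. Mean RPKM was 132 ± 9.17 in knock-out against 162 ± 75.0 in wild-type (SD, n = 3 each). The difference, knock-out minus wild-type, was -0.20 on the log2(RPKM + 1) scale (SE 0.33; limma adjusted p = 0.960). With reads scaled to depth alone and not to length it had the opposite sign, 0.36 (limma adjusted p = 0.937), and without wild-type replicate 1 it was 0.15 on the RPKM scale (limma adjusted p = 0.989). The direction for Igf1 therefore depended on the scale and on that library, and the groups overlapped on both scales.

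The opposite order of reads and RPKM in wild-type replicate 1 came with a different assignment to transcripts. Of 8 annotated Igf1 transcripts 4 had reads. In the other 5 libraries, at least 98.9% of the reads were assigned to ENSMUST00000095360, a transcript of 7052 bases. In wild-type replicate 1 this transcript held 61.9% of the reads, and ENSMUST00000122100, of 651 bases, held 14.2%. Those 1707 reads gave 125 RPKM, or 50.4% of the RPKM of the gene in that library, because RPKM divides by transcript length. ENSMUST00000062862 (2292 bases, 2024 reads) and ENSMUST00000121161 (1344 bases, 855 reads) held the rest there. For the 7052-base transcript alone, the levels were 121, 136 and 138 RPKM in knock-out against 50.4, 107 and 126 RPKM in wild-type replicates 1, 2 and 3. The RNA of this library also carried the macrophage markers given above, and their part in the transcript pattern was not tested.

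**Figure D2:**
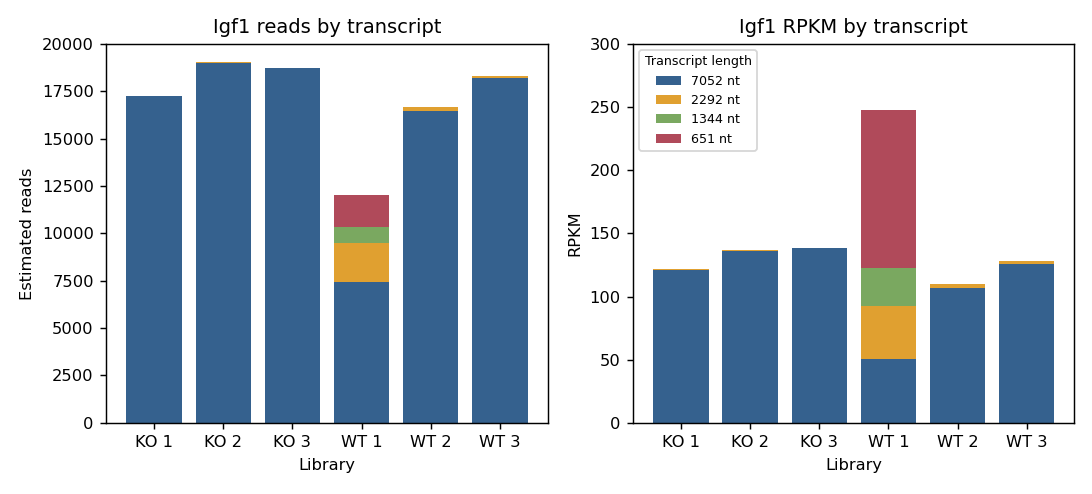
Igf1 in each library (KO, knock-out; WT, wild-type), stacked by the length of the transcript the reads were assigned to: estimated reads on the left and RPKM on the right. Wild-type replicate 1 has the fewest reads (12034) and the highest RPKM (248), with 125 RPKM from the 651-base transcript.

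Insr, the insulin receptor (ENSMUSG00000005534, chr8:3122061-3279617, minus strand), had the smallest spread of the 5 tested members above 0 in all libraries. It had 3888, 4158 and 4030 reads in knock-out against 3264, 3846 and 4316 in wild-type replicates 1, 2 and 3. In RPKM its levels were 20.5, 22.4 and 22.4 in knock-out against 16.7, 18.8 and 22.5 in wild-type. Wild-type replicates 1 and 2 were the lowest libraries, wild-type replicate 3 was the highest, and the groups overlapped. Mean RPKM was 21.8 ± 1.08 in knock-out against 19.3 ± 2.94 in wild-type (SD, n = 3 each). The difference was 0.18 on the log2(RPKM + 1) scale (SE 0.16; limma adjusted p = 0.941), and 0.08 without wild-type replicate 1 (limma adjusted p = 0.989). With the spread estimated over genes above 0 in all libraries, its 95% interval was -0.15 to 0.50. All Insr reads were assigned to 1 of 5 annotated transcripts. The coefficient of variation of its RPKM over the 6 libraries was 11.7%, below the median of 16.4% over the 5538 tested genes above 0 in all libraries. The other receptor of the family, Igf1r, which binds IGF1 and is scarce in hepatocytes, was listed at 0 in all 6 libraries, at a locus with 6 transcripts.

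Of the adaptors that couple the receptor to PI3-kinase, Irs2 was the higher in every library. Irs2 (ENSMUSG00000038894, chr8:10984681-11008458, minus strand) had 228, 168 and 230 reads in knock-out against 276, 196 and 176 in wild-type replicates 1, 2 and 3. Its levels were 1.78, 1.34 and 1.89 RPKM in knock-out against 2.08, 1.42 and 1.36 RPKM in wild-type, so wild-type replicate 1 was highest and the groups overlapped. Group means were 1.67 ± 0.291 and 1.62 ± 0.404 RPKM (SD, n = 3 each), and the difference was 0.03 on the log2(RPKM + 1) scale (SE 0.26; limma adjusted p = 1.00).

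Irs1 (ENSMUSG00000055980, chr1:82233101-82291416, minus strand) was near the limit of detection, with 46, 66 and 56 reads in knock-out against 26, 48 and 58 in wild-type replicates 1, 2 and 3. Its levels were 0.249, 0.364 and 0.318 RPKM in knock-out against 0.136, 0.240 and 0.309 RPKM in wild-type. The lowest value was again in wild-type replicate 1, and the groups overlapped. Group means were 0.310 ± 0.0582 and 0.228 ± 0.0872 RPKM (SD, n = 3 each). With no filter on low values the difference was 0.10 on the log2(RPKM + 1) scale (SE 0.075; limma adjusted p = 0.882), a scale on which values this low hardly move. With reads scaled to depth alone the difference was 0.31 on the log2 scale (SE 0.32, 95% interval -0.50 to 1.13; limma adjusted p = 0.937). Both adaptor genes have 1 annotated transcript, so the way reads were divided among transcripts does not enter their values.

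The AKT kinases, which carry the signal from PI3-kinase to FOXO1, glycogen synthase kinase and mTOR, were listed at 0 in part of the knock-out libraries. Akt1 (ENSMUSG00000001729, chr12:112653821-112674884, minus strand) had 4946, 0 and 0 reads in knock-out replicates 1, 2 and 3 against 5388, 5618 and 5856 in wild-type replicates 1, 2 and 3. Akt2 (ENSMUSG00000004056, chr7:27591552-27640826, plus strand), the main AKT isoform of insulin action on liver glucose, had 0, 3945 and 0 reads in knock-out against 3681, 3759 and 4207 in wild-type. Each gene was thus either at 0 or within 1.18 times (Akt1) and 1.14 times (Akt2) of its other libraries, with no value between, and knock-out replicate 3 was at 0 for both. In RPKM, Akt1 stood at 90.9 in knock-out replicate 1 and at 192, 168 and 106 in wild-type, and Akt2 at 43.8 in knock-out replicate 2 and at 61.3, 59.9 and 71.5 in wild-type.

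Neither AKT gene passed the test over all 11021 genes (limma adjusted p = 0.941 for each; unadjusted p = 0.0504 for Akt1 and 0.0523 for Akt2). Leaving out the 1 knock-out library in which a gene was read makes that gene 0 throughout the group, and it was then called lower in knock-out: Akt1 without knock-out replicate 1 (limma adjusted p = 0.00385) and Akt2 without knock-out replicate 2 (limma adjusted p = 0.00254). Akt1 was also called without the 2 libraries high in interferon genes, of which knock-out replicate 1 is one (limma adjusted p = 0.0258). The loci have 10 (Akt1, with Mir6939) and 14 (Akt2) annotated transcripts, where exact zeros are frequent, and whether the zeros are missing estimates was not tested for these genes.

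Reads of both kinases moved between transcripts from library to library. Akt1 reads were assigned to ENSMUST00000001780 (2690 bases) in knock-out replicate 1 and wild-type replicate 3, to ENSMUST00000128300 (1342 bases) in wild-type replicate 1, and to both in wild-type replicate 2 (1345 and 4273 reads). RPKM divides by length, and the 2 libraries that used the shorter transcript had the highest Akt1 RPKM. Akt2 reads went to ENSMUST00000167435 (2865 bases) in the 3 wild-type libraries and to ENSMUST00000108344 (4544 bases) in knock-out replicate 2. When only the most read transcript of each gene was tested, Akt2 was called lower in knock-out (limma adjusted p = 0.000225), because the reads of knock-out replicate 2 lie on the other transcript.

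Foxo1, the transcription factor that AKT restrains, was read in 5 of 6 libraries (ENSMUSG00000044167, chr3:52268336-52353221, plus strand). It had 1702, 1028 and 898.6 reads in knock-out against 0, 1896 and 1452 in wild-type replicates 1, 2 and 3. The RPKM levels were 9.71, 5.99 and 5.39 in knock-out against 0, 9.99 and 8.16 in wild-type. Apart from the 0 in wild-type replicate 1, the highest values were in wild-type replicate 2 and knock-out replicate 1, the libraries with high interferon response genes, and the part of those genes in this order was not tested. The Foxo1 locus also holds the gene model Gm38034, to which 637.4 reads were assigned in knock-out replicate 3 and 0 elsewhere. Reads of the whole locus were 1702, 1028 and 1536 in knock-out against 0, 1896 and 1452 in wild-type, so the value of knock-out replicate 3 depends on how the locus was split. Foxo1 did not pass the test with its 0 (limma adjusted p = 0.943). With zeros taken as missing, which drops wild-type replicate 1, its difference was -0.36 on the log2(RPKM + 1) scale (SE 0.27; limma adjusted p = 0.999). Foxo3, a related factor, was above 0 in all libraries, with 9.96, 11.1 and 9.12 RPKM in knock-out against 9.62, 8.95 and 9.90 RPKM in wild-type (difference 0.08, SE 0.15; limma adjusted p = 0.993).

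The binding proteins, which carry IGFs and limit their access to receptors, held the widest spread among members above 0 in all libraries. Igfbp1, an insulin-repressed and FOXO1-activated gene with a single annotated transcript (ENSMUSG00000020429, chr11:7197782-7202546, plus strand), had 2776, 1428 and 1042 reads in knock-out against 188, 2254 and 1626 in wild-type replicates 1, 2 and 3. Its levels were 90.0, 47.3 and 35.5 RPKM in knock-out against 5.88, 67.5 and 51.9 RPKM in wild-type. The highest library was 15.3 times the lowest, and 2.53 times with wild-type replicate 1 set aside. Group means were 57.6 ± 28.7 and 41.8 ± 32.0 RPKM (SD, n = 3 each). The difference was 0.89 on the log2(RPKM + 1) scale (SE 1.01; limma adjusted p = 0.943) and turned to -0.15 without wild-type replicate 1 (limma adjusted p = 0.989), so the data give no direction for Igfbp1.

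The libraries that macrophage markers and interferon response genes set apart held the lowest and the 2 highest Igfbp1 levels. Wild-type replicate 1, where Igfbp1 was lowest, was the library with 4211 RPKM of macrophage markers and with the lowest Apoa1, Ttr, Fgb and Cps1. Alb, Serpina1a, Serpina1c and Cyp3a11 were lower in wild-type replicate 3. In bulk samples such as these, fewer cells of a type and less RNA per cell cannot be told apart. The 2 libraries with high interferon response genes had the 2 highest Igfbp1 levels, 90.0 RPKM in knock-out replicate 1 and 67.5 RPKM in wild-type replicate 2. Among the other libraries, knock-out replicates 2 and 3 (47.3 and 35.5 RPKM) lay below wild-type replicate 3 (51.9 RPKM) and above wild-type replicate 1. Of the 10 hepatocyte markers, 8 were highest in wild-type replicate 2 and 0 in knock-out replicate 1. The part of the macrophage, interferon or hepatocyte genes in the Igfbp1 levels was not tested. Its coefficient of variation over the 6 libraries was 57.4%, and 92.0% of the 5538 tested genes above 0 in all libraries had a lower one.

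Igfbp4, a binding protein that holds back IGF action (ENSMUSG00000017493, chr11:99041244-99054392, plus strand), was also lowest in wild-type replicate 1. It had 10132, 10228 and 6018 reads in knock-out against 2406, 11076 and 6629 in wild-type replicates 1, 2 and 3, all assigned to 1 of 6 annotated transcripts. The levels were 131, 135 and 81.6 RPKM in knock-out against 29.98, 132 and 84.3 RPKM in wild-type. Outside wild-type replicate 1 the groups covered nearly the same range, with 3 libraries near the top and 1 of each group in the middle. Group means were 116 ± 29.6 and 82.1 ± 51.1 RPKM (SD, n = 3 each). The difference was 0.69 on the log2(RPKM + 1) scale (SE 0.60; limma adjusted p = 0.941) and 0.10 without wild-type replicate 1 (limma adjusted p = 0.989).

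**Figure D3:**
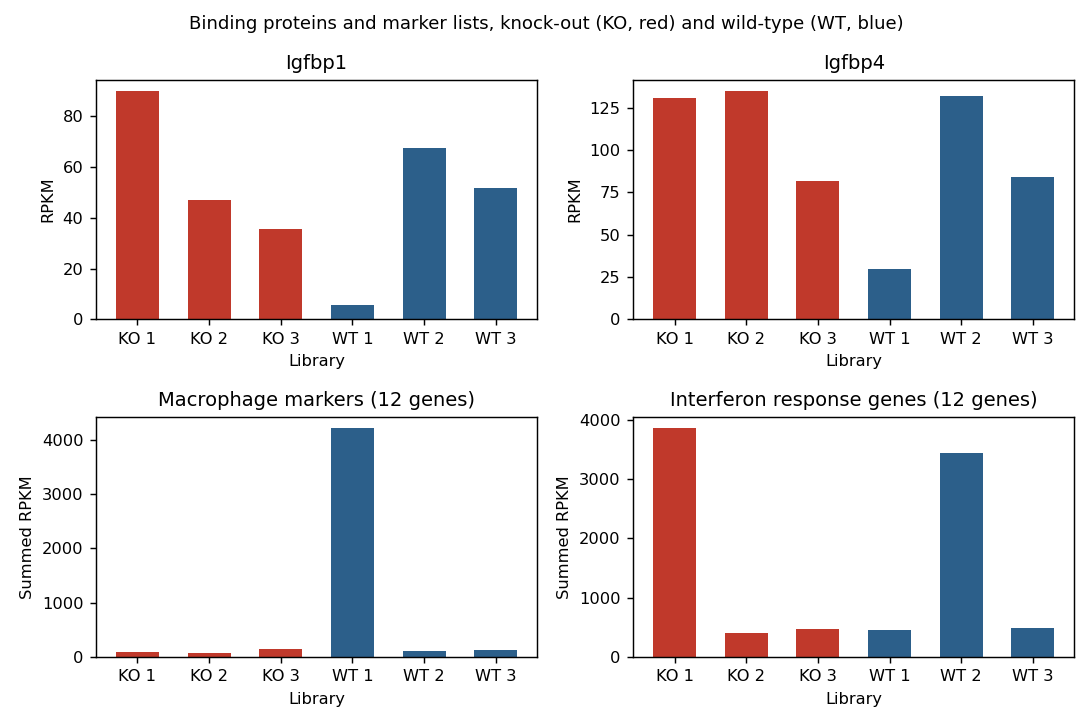
RPKM of Igfbp1 and Igfbp4 (top) and summed RPKM of 12 macrophage markers and 12 interferon response genes (bottom) in each library. Both binding proteins are lowest in wild-type replicate 1, the library with 4211 RPKM of macrophage markers, and Igfbp1 is highest in the 2 libraries with 3853 and 3446 RPKM of interferon response genes.

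Igfbp2, a binding protein of the same family (ENSMUSG00000039323, chr1:72824503-72852474, plus strand), was listed at 0 in 3 libraries. It had 1540, 0 and 0 reads in knock-out against 1566, 1730 and 0 in wild-type replicates 1, 2 and 3. Where it was read, the levels were 58.2 RPKM in knock-out replicate 1 and 57.2 and 60.4 RPKM in wild-type replicates 1 and 2, within 1.06 times of each other. The zeros fell in both groups, at a locus with 3 transcripts (limma adjusted p = 0.943). Wild-type replicate 1, low for the other binding proteins, did not stand apart for Igfbp2. Igfbp3, the main carrier of IGF1 in blood, was likewise listed at 0 in 1 library of each group, with 2106, 0 and 1108 reads in knock-out against 0, 2920 and 1344 in wild-type.

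The 95% intervals give the precision of these comparisons. With the spread estimated over the 5538 tested genes above 0 in all libraries, the intervals of the difference on the log2(RPKM + 1) scale were -0.98 to 0.57 for Igf1, -0.35 to 0.42 for Irs2, -1.35 to 3.14 for Igfbp1 and -0.66 to 2.04 for Igfbp4. Without wild-type replicate 1 they narrowed to -0.24 to 0.54 for Igf1, -1.18 to 0.89 for Igfbp1 and -0.70 to 0.89 for Igfbp4. For Insr and Irs2 they then were -0.25 to 0.41 and -0.19 to 0.50.

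**Figure D4:**
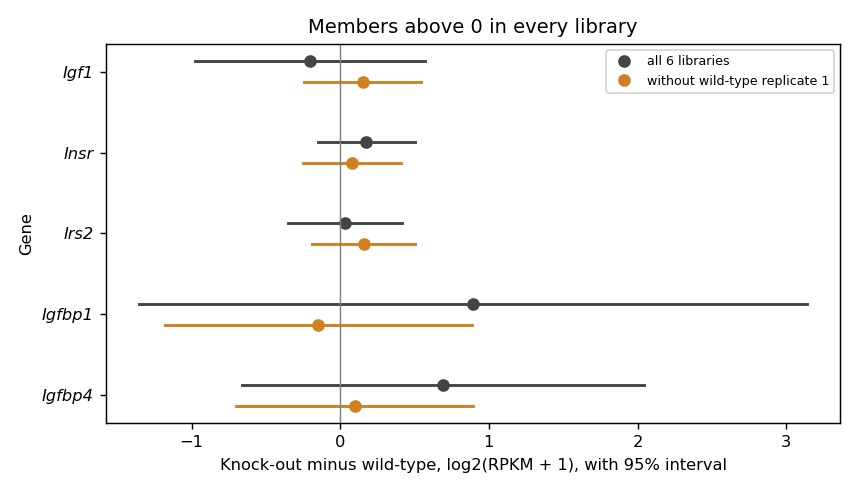
Difference of the 5 tested genes above 0 in all libraries, knock-out minus wild-type in log2(RPKM + 1), with its 95% interval from limma, over all 6 libraries and without wild-type replicate 1. All 10 intervals include 0, and the estimates for Igf1 and Igfbp1 change sign when that library is left out.

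Around the members, 83 further genes of the pathway were followed in 11 lists, of which 56 were tested. One was called, Pik3r2, lower in knock-out (1 of 56, beside 0.789% of all tested genes). Pik3r2 encodes a regulatory subunit of PI3-kinase and was listed at 0 in the 3 knock-out libraries, with 1140, 1008 and 1280 reads in wild-type replicates 1, 2 and 3 (limma adjusted p = 0.00102). Its locus has 6 transcripts. The better known subunit gene Pik3r1 had 0, 2984 and 2094 reads in knock-out against 2316, 0 and 0 in wild-type. The call was lost, with 0 of the further genes called, with the replicate block, and Pik3r2 leaves the fit among genes above 0 in all libraries or with zeros as missing. It was called in each of the 6 fits that left out 1 library, and other genes were added in 4 of them: Srebf1 and Foxo4 without knock-out replicate 1 (3 genes called), Stat5b without knock-out replicate 2 (2), Grb10 and Tsc1 without wild-type replicate 2 (3) and Pdpk1 without wild-type replicate 3 (2). These 6 added genes were named after their values were seen, and each is listed at 0 in some library. Among the 16 further genes tested and above 0 in all libraries, 0 were called (0 at an unadjusted p below 0.05), 7 differences were positive and 9 negative, and their median was -0.018 beside 0.0013 for all 5538 genes. Without wild-type replicate 1, 10 were positive and 6 negative, and the median was 0.034 beside 0.020.

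On the ligand and receptor side no gene was called: 0 of 7 tested in the list of ligands and the growth hormone axis, 0 of 2 receptors and 0 of 4 IGF-binding proteins, members included. Igfals, the acid-labile subunit that holds IGF1 in its large complex in blood, has 1 transcript at its locus and stood at 9.51, 11.4 and 12.1 RPKM in knock-out against 7.37, 9.43 and 13.2 RPKM in wild-type (difference 0.15, SE 0.25; limma adjusted p = 0.962). The growth hormone receptor gene Ghr, through which growth hormone raises Igf1 in liver, had 8874, 9494 and 8836 reads in knock-out against 0, 6848 and 9642 in wild-type, the 0 being in wild-type replicate 1. Of the 5 genes for proteases of the binding proteins and their inhibitors, all were listed at 0 in all 6 libraries.

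Downstream of the receptor, besides Pik3r2 among 8 tested genes of PI3-kinase and lipid phosphatases, the calls were 0 of 7 adaptors, 0 of 8 AKT kinases and substrates, 0 of 12 mTOR genes, 0 of 3 FOXO factors and 0 of 10 brakes on the receptor. The adaptor gene Gab1 had 9.24, 11.96 and 9.79 RPKM in knock-out against 6.76, 8.81 and 9.20 RPKM in wild-type. The difference for Gab1 was 0.29 (SE 0.20; limma adjusted p = 0.941). Sos1, an exchange factor that links adaptors to RAS, differed by -0.02 (SE 0.18; limma adjusted p = 1.00). In the list of AKT substrates, Gsk3a, a kinase that AKT inhibits, differed by -0.04 (SE 0.11), and Phlpp1, a phosphatase of AKT, by -0.04 (SE 0.18; limma adjusted p = 1.00 for each). Among mTOR genes, the GTPase gene Rheb ran from 42.3 to 129 RPKM, with a difference of -0.53 (SE 0.43; limma adjusted p = 0.941), although its reads spanned only 3390 to 4806. Eif4ebp1, a translation repressor that mTOR inactivates, stood at 198 to 243 RPKM (difference -0.08, SE 0.10; limma adjusted p = 0.943). Of the brakes on the receptor, Cblb, a ubiquitin ligase, differed by -0.11 (SE 0.21; limma adjusted p = 0.980) and Ptprf, a receptor phosphatase, by 0.05 (SE 0.34; limma adjusted p = 1.00). Socs3, a brake named after its values were seen, was read in wild-type replicate 1 alone (2644 reads), the library with the macrophage markers. Other genes of the lists, also named after their values were seen, were read in 1 library alone elsewhere. Examples are Mtor and Rps6kb2 in knock-out replicate 2 and Socs2 in knock-out replicate 3. Whether the zeros of Socs3 are missing estimates was not tested, nor was the part of the macrophage markers in its reads.

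Among genes whose transcription insulin and FOXO1 are known to set, G6pc had few reads and Pck1 was listed at 0. G6pc, the gene for the catalytic subunit of glucose-6-phosphatase, has 1 transcript at its locus and had 4, 4 and 4 reads in knock-out against 2, 8 and 0 in wild-type replicates 1, 2 and 3. Pck1, which encodes the cytosolic enzyme that commits carbon to gluconeogenesis, was listed at 0 in all 6 libraries, at a locus with 4 transcripts. Of the 13 genes of this list, 4 were at 0 in all libraries, 6 in some and 3 (Igfbp1, Irs2 and Insr) in none, 7 were tested and 0 were called. With so few reads, the levels of G6pc give no comparison between the groups.

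**Figure D5:**
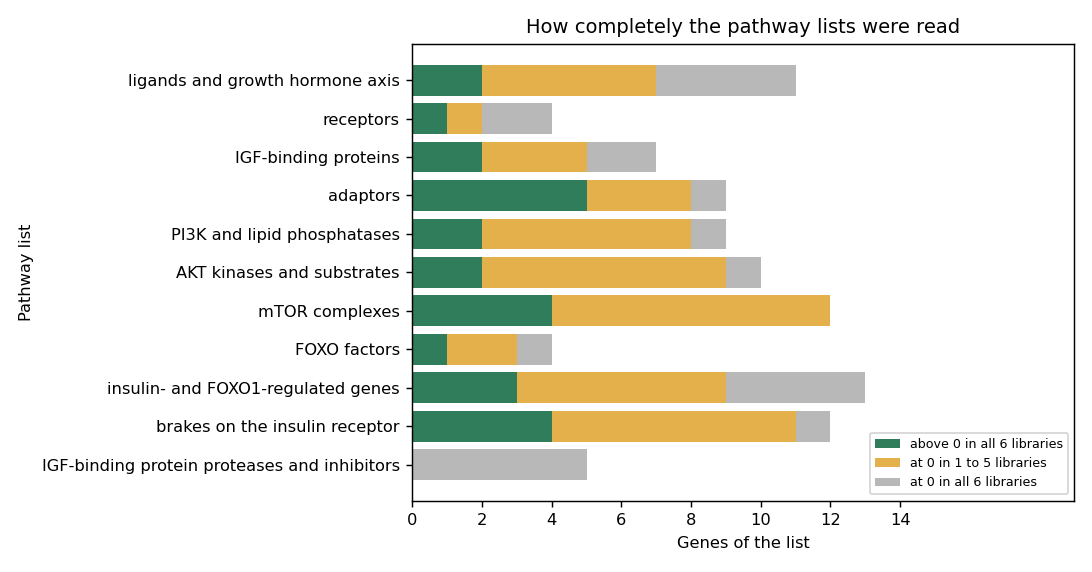
Number of genes in each pathway list, members included, that were above 0 in all 6 libraries (green), at 0 in 1 to 5 libraries (yellow) or at 0 in all 6 (grey). In 10 of the 11 lists the genes at 0 in some or all libraries outnumber those above 0 in all.

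Among the 83 further genes, zeros were spread unevenly by locus. Of 13 genes at loci with 1 transcript, 6 were above 0 in all libraries, 5 were at 0 in all and 2 were at 0 in some. Of 70 genes at loci with 2 or more transcripts, 11 were above 0 in all libraries, 17 were at 0 in all and 42 were at 0 in some. A gene at 0 in some libraries and well read in others, as Akt1, Akt2, Foxo1 and Igfbp2 were, was thus the usual case at loci of the second kind.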

How the data were processed

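Polyadenylated RNA of 3 knock-out and 3 wild-type hepatocyte samples was sequenced in single-end libraries, per the labels. The authors deposited 1 annotation file per library giving, for each of 118492 transcripts, its estimated count of reads and its RPKM. The submitters' processing notes name TopHat2, version 2, and the build GRCm38, also given as mm10. The tool that divided reads among transcripts and its strand setting are not given in the sources used here. In these files 92.2% to 92.9% of the locus totals above 0 were even once rounded to whole numbers, and the RPKM values rest on library totals of 19245556 to 21899881 reads. Reads and RPKM were summed per gene, and 47993 of 48353 genes matched a symbol.

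Genes whose mean reached 1 RPKM were tested on log2(RPKM + 1) with limma 3.58.1 in R 4.3.3 (lmFit, eBayes with a trend, two-sided, all 6 libraries), which understates changes of low genes. The fit was tested on simulated normal values with a common spread and no zeros. That test does not cover genes at 0 throughout one group, as all called genes were. Tables and figures were made in Python 3.11.15 with pandas 2.3.3, numpy 2.4.6 and matplotlib 3.10.9. Coordinates are those of the files; promoters are from RefSeq.

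The members, lists and named-gene rule were chosen with earlier results of these data known. Named besides the members were, in each list, the called genes with the greatest difference (2 per direction at most), or where none was called the 2 genes above 0 in all libraries whose p was smallest, and 10 reference genes always, of which 2 are not reported here. Alternatives covered the pseudocount (0.1), filter (absent, or 5 RPKM), zeros, scaling, transcript choice, variance model, threshold (0.1), replicate block and left-out libraries. Dropping both interferon-high libraries, and combining settings, were chosen after seeing the data.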

Additional observations from a re-analysis of the deposited data

How the results depend on the processing

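Of the members, 0 were called as reported. The count was 1 with the most read transcript per gene (Akt2), 0 to 1 leaving out 1 library (Akt1 without knock-out replicate 1, Akt2 without knock-out replicate 2) and 1 without the 2 libraries high in interferon genes (Akt1), and 0 in the other settings. At an unadjusted limma p below 0.05 the members numbered 0 as reported. They numbered 1 (Akt1) with no filter, with the 5 RPKM filter and with quantile normalization, and 2 (Akt1 and Akt2) with voom weights. Over all genes this held for 208 of 11021 as reported. In those settings, in the same order, it held for 322 of 15661, 180 of 8169, 218 of 11021 and 395 of 11021. By adjusted p, 87 of all genes were called as reported. The count was 0 among genes above 0 in all libraries, also without wild-type replicate 1 and with the replicate block there, 0 with zeros as missing and 0 with the replicate block over all tested genes (198 at an unadjusted p below 0.05). It was 171 to 198 leaving out 1 library: 188, 176 and 177 without knock-out replicates 1, 2 and 3, and 198, 193 and 171 without wild-type replicates 1, 2 and 3. Without the 2 libraries high in interferon genes it was 298, and for reads scaled to depth alone without wild-type replicate 1 it was 231. With the most read transcript, calls split into 32 higher and 64 lower, against 41 and 46. Of the further pathway genes 1 was called as reported, 0 in the same 5 settings in which no gene was, 1 to 3 leaving out 1 library, and 4 without the 2 libraries high in interferon genes. Where genes at 0 in some library left the fit, so did every called gene; the cause of the other changes was not tested.

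The difference of Igf1 was -0.20 as reported and reversed to 0.36 in reads scaled to depth alone, 0.57 with the most read transcript, 0.35 with voom weights, 0.15 without wild-type replicate 1 (also among genes above 0 in all libraries) and 0.20 in depth-scaled reads without that library; leaving out 1 library it ran from -0.43 to 0.15. Igfbp1 went from 0.89 to -0.15 without wild-type replicate 1 (also among genes above 0 in all libraries) and to -0.12 in depth-scaled reads without it, and ran from -0.15 to 1.51 leaving out 1 library. Irs2 went from 0.03 to -0.026 without knock-out replicate 3, -0.019 without wild-type replicate 2, -0.037 without wild-type replicate 3 and -0.051 without the 2 libraries high in interferon genes, and ran from -0.037 to 0.16 leaving out 1 library. Insr and Igfbp4 kept their sign in all 22 alternatives, and the limma adjusted p of these 5 genes ran from 0.799 to 1.00 over the alternatives. Quantile normalization moved the median difference of all genes from -0.01 to 0.08 with calls at 42 higher and 45 lower.

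The replicate numbers are shared by the groups, and deviations of same-numbered libraries correlated at -0.16, -0.05 and -0.0053, so the numbers were not taken as pairs. Between libraries of different numbers the correlations ran from -0.27 to 0.31. The highest was that of knock-out replicate 1 with wild-type replicate 2, the libraries high in interferon genes. The replicate block left 0 genes called, which cannot decide on pairing, since the block itself uses up degrees of freedom. Irs1 rests on 26 to 66 reads and G6pc on 0 to 8, which limits both. With 3 libraries per group, 1 of them apart in markers of other cells, intervals are wide for Igfbp1 and Igfbp4.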

Other observations

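As a description, with no test, the gene most like each member over the 6 libraries was sought among the 5538 tested genes above 0 in all libraries, by Pearson r of log2(RPKM + 1). The points share libraries and depth, and wild-type replicate 1 sets much of the spread for several members. Each r is the highest among these genes over only 6 libraries, so a value near 1 by itself shows no link. The r without wild-type replicate 1 is for the gene already chosen. The closest to Igf1 was Mrps26 (r = 0.997, and 0.962 without wild-type replicate 1), and the closest to Insr was Zfp687 (0.997 and 0.992). For Irs2 it was Mob1a (0.993 and 0.988), for Igfbp1 Twsg1 (0.995 and 0.958), and for Igfbp4 Il13ra1 (0.996 and 0.976).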
